A study of Mus musculus with 4 samples.

Results

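The glycerolipid and triglyceride synthesis genes comprised 10 of the 22481 gene symbols listed in the tables, namely Pck1, Gpd1, Gpd2, Aqp7, Gpam, Agpat2, Lpin1, Dgat1, Dgat2 and Mogat1. They were taken by symbol alone, and each had 1 row in each table. The study used RNA immunoprecipitation sequencing of mouse brown adipose tissue to look for messenger RNAs bound by FAM172A during cold exposure. RNA recovered with an antibody to FAM172A (IP) was compared with RNA recovered with control immunoglobulin (IgG) in 2 pairs of libraries, each of 1 IP and 1 IgG library. Titles of all 4 libraries carry WT, and the labels give no strain, sex, age, allele or agent. The libraries titled cold have the cold protocol in the labels and are called the first pair. They were placed in the table whose columns name only IP and IgG by elimination, since no column name says cold. The libraries titled WT4 have no protocol in the labels and are called the WT4 pair. No label says how many animals gave a library, or that the pairs came from separate animals, so the tests below measure spread between these samples only, which may be technical.

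Triglyceride is built on a glycerol 3-phosphate backbone. In fat cells the backbone comes largely from glycolytic dihydroxyacetone phosphate through Gpd1, which glyceroneogenesis can supply from pyruvate through Pck1. Gpam adds the first acyl chain at the outer mitochondrial membrane, and Agpat2 adds the next in the endoplasmic reticulum. Lpin1 then removes the phosphate to give diacylglycerol, and Dgat1 or Dgat2 adds the last acyl chain. Mogat1 makes diacylglycerol from monoacylglycerol. Aqp7 is the channel through which glycerol leaves the adipocyte. Brown fat stores triglyceride in many small droplets, and that store feeds heat production.

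All 10 genes were found by Ensembl identifier in GENCODE vM21, whose assembly GRCm38 is mm10 under another name. Their principal coding transcripts ran from 1228 bases for Mogat1 to 6172 bases for Gpam. GC content ran from 46.4% in Gpd2 to 58.0% in Agpat2, against a median of 49.8% over the longest coding transcripts of 15048 tested genes. The 3′ untranslated region took 3294 bases of Gpam and 3242 of Gpd2, but 221 of Dgat1 and 73 of Mogat1. In the tables' own annotation 6 of the 10 (Gpam, Agpat2, Lpin1, Dgat1, Dgat2 and Mogat1) carried the glycerolipid metabolism pathway, and Pck1 and Aqp7 carried the PPAR signaling pathway. An endoplasmic reticulum component term was given to 5 of the 10 and a mitochondrial one to 5. The listed locus was shared with other genes for 3 of the 10, against 25.7% of all listed symbols: Agpat2 with 3 others, Dgat2 with 7 and Mogat1 with 1. Such sharing can make counts uncertain, and its effect on these 3 was not tested. Antisense partners could add to counts as well, because whether counting used strand is not given by the labels. On the reference, Gpd1, Gpd2, Gpam, Agpat2 and Mogat1 each overlap a gene on the opposite strand.

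Levels are given as scaled CPM, a gene's deposited scaled count per 1000000 of the average total of both columns in its table. For the first pair 6633653 fragments were counted in IP and 5587294 in IgG, and for the WT4 pair 1631882 in IP and 360369 in IgG. Scaled totals stood at 1.01 of their table's average in IP and 0.99 in IgG in the first pair, then 1.10 and 0.90. The tissue label fitted the markers of brown adipocytes, of which 6 of 6 were found in every library. Their summed level was 9888 scaled CPM in IP and 9243 in IgG in the first pair, then 6061 and 3199 in the WT4 pair. The 6 adipocyte markers were likewise found in every library. Skeletal muscle, which also makes Gpd1, Gpd2 and Lpin1, was present by its markers: 5 of 5 were found in every library, with sums of 4302 in IP and 2770 in IgG, then 1222 and 1335. Myh4 alone gave 1252 of the WT4 IgG sum, and Ckm and Mylpf had 1 fragment each in that library. By any amount 3 of the 5 were higher in WT4 IP, against 65.8% of all tested genes, and Myh4 was lower. The part of skeletal muscle in the results was not tested. The 4 liver markers summed to 49.7 scaled CPM in IP and 26.7 in IgG in the first pair, then 16.8 and 185, the last from Apob (52 fragments) and Ttr (22). Alb had 151 fragments in IP and 62 in IgG in the first pair and was at 0 in both WT4 libraries. Endothelial markers summed to 738 in IP and 1789 in IgG in the first pair, then 2019 and 1420, and the 4 macrophage markers to at most 57.5 in a library. In bulk tissue, fewer cells of a type and less RNA per cell cannot be told apart. Fam172a, whose protein the antibody targets, had 141 fragments in IP and 135 in IgG of the first pair. The WT4 libraries, which differ in size, gave 99 in IP and 24 in IgG. After adding 1 scaled CPM, the Fam172a log2 ratio of IP over IgG was -0.16, then 0.15 with WT4. With each library scaled to its own fragments it was -0.18, then -0.13.

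Of the 10 genes, 9 were abundant in every library, and Mogat1 was close to absent. The 9 averaged at least 100 scaled CPM. They had fragments in all 4 libraries, which held for 43% of all 16217 tested genes (a mean of at least 1 scaled CPM) and for 98% of the 1906 tested genes of at least 100 scaled CPM. Together the 10 genes took 1.99% of fragments in IP and 1.86% in IgG in the first pair, then 0.822% and 0.784% in the WT4 pair. Gpd1, the cytosolic glycerol 3-phosphate dehydrogenase, made up 58.3% of that sum in IP and 62.7% in IgG in the first pair, then 49.8% and 49.5% in the WT4 pair. Without Gpd1 the others took 0.832% in IP and 0.694% in IgG, then 0.413% and 0.396%. Per length, Gpd1 stood at 3353 FPKM in IP and 3497 in IgG in the first pair, ranking 10 and 7 among all symbols, and at 1111 and 663 in the WT4 pair, ranking 15 in both. Pck1 and Agpat2 followed in all 4 libraries, Pck1 first except in the first IgG library, where Agpat2 had 709.7 FPKM and Pck1 660.8. The other 6 abundant genes lay between 23.4 and 236 FPKM, and their order was the same in both libraries of the first pair and different in each WT4 library. Aqp7 was the lowest of the 9 in both IP libraries, at 41.5 and 37.7 FPKM, and in the first IgG library, at 78.1. In the WT4 IgG library Gpd2 was the lowest, at 23.4.

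**Figure D1:**
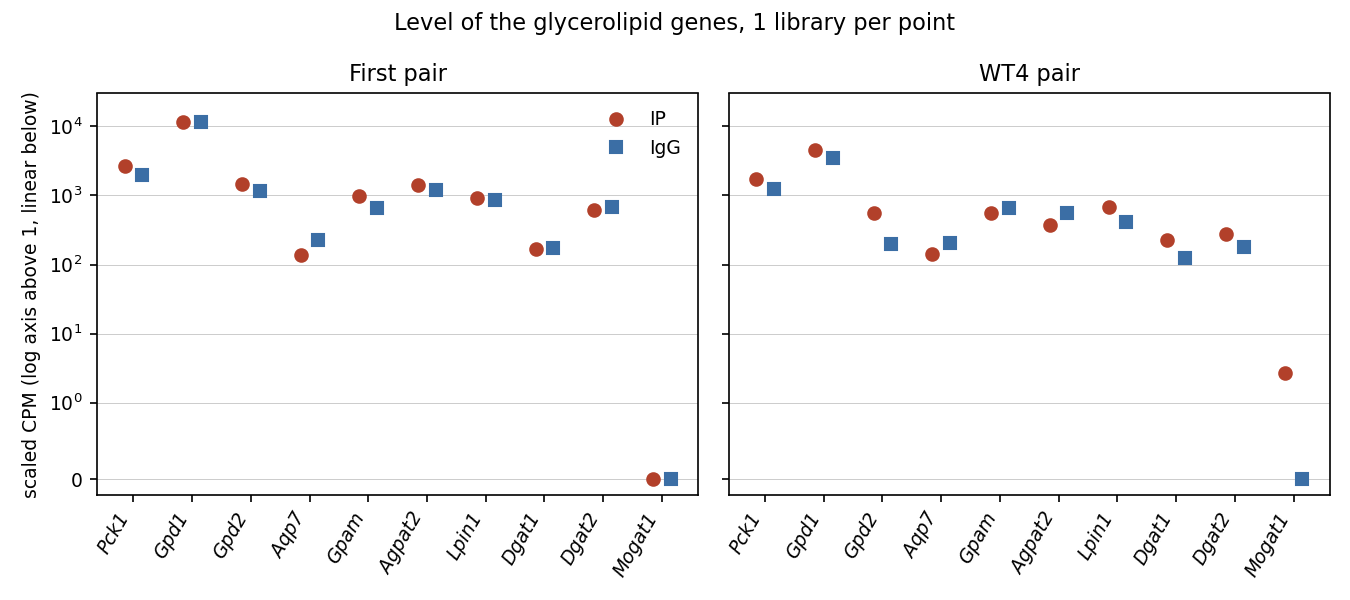
Level of each glycerolipid gene in scaled CPM (log axis above 1, linear below), with 1 point per library, IP as circles and IgG as squares, in the first pair (left) and the WT4 pair (right). Gpd1 is the highest gene in every library, and Mogat1 has a point above 0 in the WT4 IP library alone, at 2.69.

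The question the design poses is which of these RNAs were recovered more with the FAM172A antibody than with IgG. None of the 9 tested members was called across both pairs, and 0 reached an unadjusted p under 0.05 (edgeR quasi-likelihood test with the pair as a block and Benjamini-Hochberg adjustment over 16217 genes, smallest unadjusted p = 0.0995, smallest adjusted p = 1.0). The same test called 1 gene higher (0.00617% of all tested genes, 0.0525% of those of at least 100 scaled CPM) and 0 lower (0%), and limma called 12 higher and 1 lower, none of them a member. At an unadjusted p under 0.05 edgeR had 139 genes higher (0.857%) and 96 lower (0.592%), or 3.99% and 0.577% of those of at least 100 scaled CPM. The edgeR common dispersion was 1.47, with 1 residual degree of freedom per gene, so the lack of a call does not show equal recovery. Ratios are log2 of IP over IgG after adding 1 scaled CPM. Of the 9, Gpd2 was the highest on average (mean 0.92 ± 0.78, SD, n = 2 pairs) and Aqp7 the lowest (mean -0.64 ± 0.13, SD, n = 2 pairs). The 95% intervals that limma gives for the members' mean ratios reached from 0.61 to 1.22 on the log2 scale to either side, and 8 of the 9 held 0. An exact permutation of 2 libraries against 2 that ignores the pairing cannot go below p = 0.333, two-sided.

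A 2-fold line was passed by 1 member, in 1 pair. In the first pair 0 of the 9 were at least 2-fold higher in IP, where 13.3% of all tested genes and 2.73% of those of at least 100 scaled CPM were, and 0 were at least 2-fold lower, against 26.9% and 8.08%. In the WT4 pair 1 of the 9, Gpd2, was at least 2-fold higher, against 51.6% of all tested genes and 30% of those of at least 100 scaled CPM. None was 2-fold lower there, against 19.3% and 5.51%. At least 2-fold higher in both pairs were 0 of the 9, against 7.19% and 0.577%, and 0 were lower in both, against 5.25% and 0.63%. By any amount 6 of the 9 were higher in IP in the first pair, against 34.6% of all tested genes and 45.6% of those of at least 100 scaled CPM, and 6 in the WT4 pair, against 65.8% and 69.9%. The members' median was 0.11 in the first pair, beside -0.03 over all tested genes and -0.05 over those of at least 100 scaled CPM. In the WT4 pair it was 0.50, beside 1.17 and 0.46. Relative to 1.17 Gpd2 alone of the 9 lay above. That median rests largely on genes without WT4 IgG fragments, 6966 of the 16217, and was 0.74 after adding 5 in place of 1 and 0.01 with such genes at their bound against a floor of 3 fragments. All 9 members had fragments in WT4 IgG, and the median of genes of at least 100 scaled CPM, 0.46, was the same with bounds. By the authors' scaling 4 of the 9 (Gpd1, Gpd2, Lpin1 and Pck1) were higher in IP in both pairs by any amount, against 23.3% of all tested genes and 32.5% of those of at least 100 scaled CPM. Of these only Gpd2 stayed so when the WT4 pair was centred on its median over all tested genes. With centring on genes of at least 100 scaled CPM, Gpd2, Lpin1 and Pck1 stayed so. Aqp7 was lower in both, against 16.1% and 17.1%, and the other 4 went opposite ways.

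**Figure D2:**
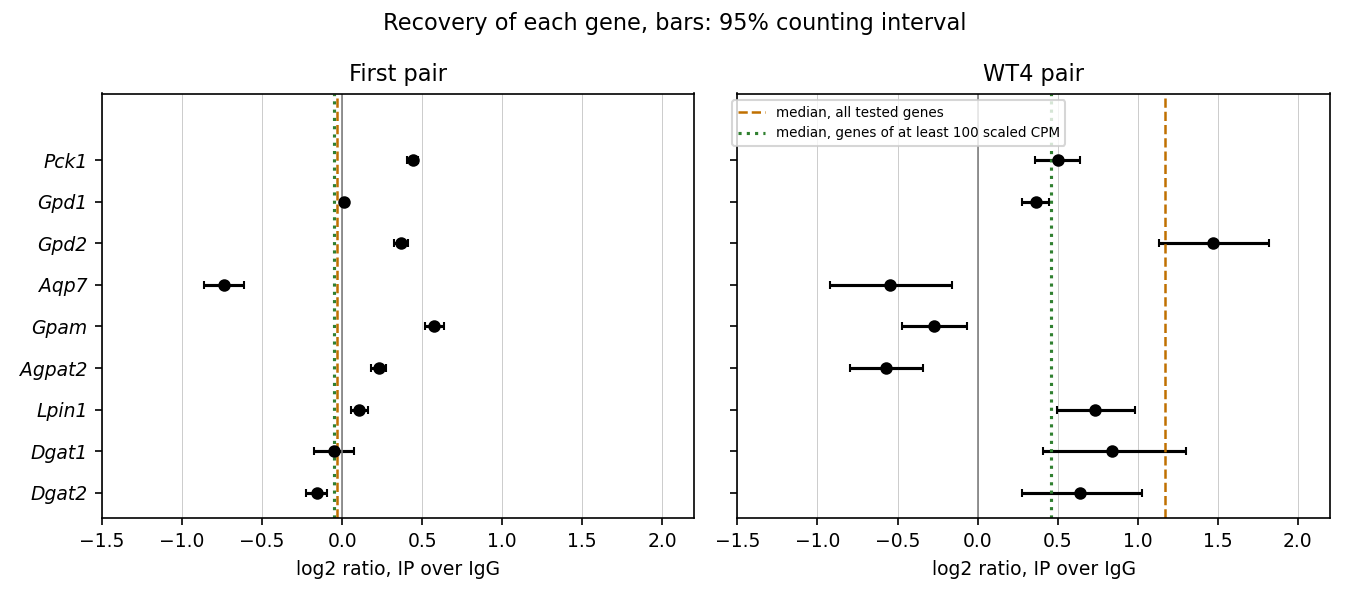
Log2 ratio of IP over IgG (no value added) for the 9 tested members in the first pair (left) and the WT4 pair (right), with bars for the exact 95% counting interval, a dashed line for the median of all tested genes and a dotted line for the median of genes of at least 100 scaled CPM. Aqp7 lies below 0 in both panels, and in the WT4 panel Gpd2 alone has its point to the right of the dashed line at 1.17.

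Pck1, the cytosolic phosphoenolpyruvate carboxykinase of glyceroneogenesis (chromosome 2, 173153048 to 173159273, plus strand), had 2652 scaled CPM in IP and 1955 in IgG in the first pair. The WT4 pair gave 1731 in IP and 1225 in IgG. By the authors' scaling the IP library was the higher one in both pairs and by nearly the same factor. It was 1.36-fold higher in the first (exact 95% counting interval 1.32 to 1.39) and 1.41-fold in the WT4 pair (1.28 to 1.56). Error from counting is all that such intervals address, and spread between libraries and error in the scaling are left out. Without molecular identifiers several fragments can come from 1 molecule, so the intervals can be too narrow even for counting. The log2 ratios of 0.44 and 0.50 gave the smallest spread of the 9 (mean 0.47 ± 0.04, SD, n = 2 pairs), with an adjusted p = 1.0 by edgeR. That closeness rested on the authors' scaling. With each library scaled to its own fragments the log2 ratios were 0.42 and 0.21, and with TMM factors 0.51 and 0.78. Centred on genes of at least 100 scaled CPM they were 0.49 and 0.04. Centred on the WT4 median of all tested genes, the WT4 ratio of Pck1 was below 0. Liver also makes Pck1, and the liver markers summed to 185 scaled CPM in WT4 IgG, their highest, where Pck1 had 1225. Their part in the Pck1 ratios was not tested.

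Gpd1 (chromosome 15, 99717515 to 99725005, plus strand) had 11674.5 scaled CPM in IP and 11573 in IgG in the first pair, with 77043 and 65000 fragments. WT4 levels were 4497 in IP and 3496 in IgG. Its first-pair ratio of 1.01-fold was the closest to equal recovery of the 9 and had an interval of 0.998 to 1.02. In FPKM and with each library scaled to its own fragments it lay on the other side of 0, at -0.06 and -0.0024 on the log2 scale. In the WT4 pair it was 1.29-fold higher in IP (1.21 to 1.36), a log2 ratio of 0.36 where 0.46 was the median of genes of at least 100 scaled CPM. In FPKM the WT4 log2 ratio was 0.74, and with each library scaled to its own fragments it was 0.075.

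Gpd2, the mitochondrial glycerol 3-phosphate dehydrogenase that passes electrons from glycerol 3-phosphate to the respiratory chain (chromosome 2, 57237635 to 57370719, plus strand), had 1488 scaled CPM in IP and 1154 in IgG in the first pair. Its WT4 levels were 553 in IP and 199.9 in IgG, from 821 and 80 fragments. It was higher in IP by 1.29-fold (1.25 to 1.33) and 2.77-fold (2.197 to 3.53), for log2 ratios of 0.37 and 1.46. Its place among genes of at least 100 scaled CPM was percentile 78.9 in the first pair, then 81.1 in the WT4 pair. Gpd2 was the 1 member with a log2 ratio above 0 in both pairs under all 8 settings tried, from 0.35 to 0.44 in the first pair, then from 0.29 to 1.74 in the WT4 pair. Pck1 and Lpin1 were also above 0 in both pairs under every setting but the centring on all tested genes. Gpd2 did not pass the test (edgeR log2 fold change 0.91, unadjusted p = 0.0995, adjusted p = 1.0). By limma its interval was 0.05 to 1.78, with an unadjusted p = 0.0382 and an adjusted p = 0.998.

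Aqp7, the glycerol channel (chromosome 4, 41033074 to 41048139, minus strand), had 136 scaled CPM in IP and 226 in IgG in the first pair, from 897 and 1272 fragments. The WT4 pair gave 140.1 in IP and 205 in IgG, from 208 and 82 fragments. The 2 IP libraries were close to each other, and both lay below both IgG libraries, although the tables were normalized separately. As a share of all fragments Aqp7 took 0.0135% and 0.0127% in the IP libraries and 0.0228% in each IgG library. The ratio was 0.60-fold in the first pair (0.55 to 0.65) and 0.68-fold in the WT4 pair (0.53 to 0.89), at percentiles 14.7 and 13.0 among genes of at least 100 scaled CPM. Aqp7 was the 1 member with a log2 ratio below 0 in both pairs under all 8 settings, from -0.90 to -0.66 in the first pair, then from -1.72 to -0.24 in the WT4 pair. Capillary endothelium of fat also makes Aqp7. Of 5 endothelial markers 4 passed the 2-fold line downward in the first pair. With WT4 libraries 3 passed it upward and 1, Tie1, downward, and the sum was higher in IP (2019) than in IgG (1420). Tie1 was thus lower each time, at 0.30-fold, then 0.43-fold. The part of endothelium in the Aqp7 ratios was not tested. Aqp7 did not pass the test (edgeR log2 fold change -0.64, unadjusted p = 0.330, adjusted p = 1.0), and limma's interval of -1.86 to 0.58 held 0.

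**Figure D3:**
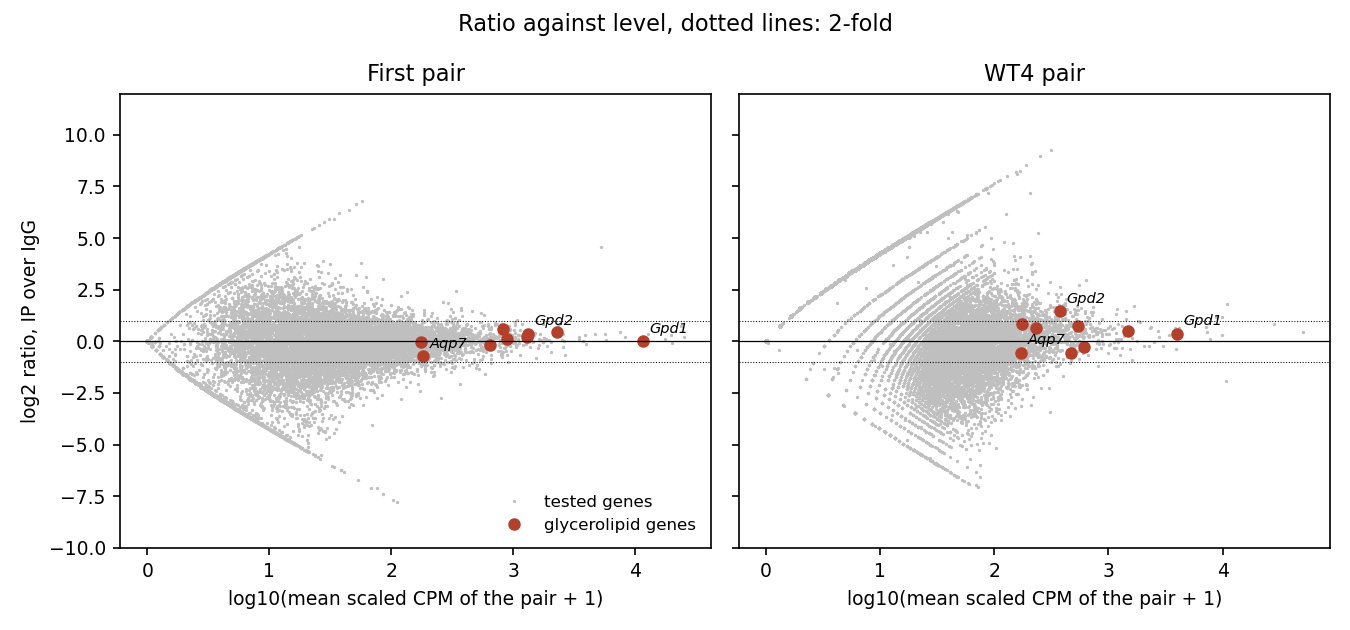
Log2 ratio of IP over IgG against the mean level of each pair, as log10 of scaled CPM + 1, for all tested genes (grey) and the 9 tested members (red), in the first pair (left) and the WT4 pair (right), with dotted lines at 2-fold. The members sit toward the right end of the cloud, Gpd1 farthest right among them, and Gpd2 in the WT4 panel, at 1.46, is the 1 member outside the dotted lines.

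The acyltransferases that start the pathway went opposite ways in the pairs. Gpam, the mitochondrial glycerol 3-phosphate acyltransferase (chromosome 19, 55067268 to 55127238, minus strand), had 984 scaled CPM in IP and 660.1 in IgG in the first pair. WT4 levels were 551 in IP and 666 in IgG. The first IP library stood above the other 3, which lay between 551 and 666. Its ratio was the highest of the 9 in the first pair, at 1.49-fold (1.43 to 1.55), and 0.83-fold in the WT4 pair (0.72 to 0.96). With TMM factors the WT4 log2 ratio was 0.0064 in place of -0.27.

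Agpat2, the acyltransferase whose loss causes congenital generalized lipodystrophy in humans (chromosome 2, 26593057 to 26604417, minus strand), had 1404 scaled CPM in IP and 1198 in IgG in the first pair. WT4 levels were 376 in IP and 558 in IgG. It was 1.17-fold higher in the first pair (1.14 to 1.21) and at 0.67-fold in the WT4 pair (0.58 to 0.79), the lowest ratio of the 9 there. Its locus is listed with Egfl7, an endothelial gene that overlaps it on the opposite strand. Egfl7 had log2 ratios of -1.01 and 0.42 where Agpat2 had 0.23 and -0.57. The part of shared reads in either gene's count was not tested.

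Lpin1, the phosphatidate phosphatase that yields diacylglycerol (chromosome 12, 16535669 to 16610966, minus strand), had 914 scaled CPM in IP and 848 in IgG in the first pair. WT4 levels were 682 in IP and 409.9 in IgG. The IP library was the higher in both pairs, by 1.08-fold (1.04 to 1.12) and 1.66-fold (1.41 to 1.98), with log2 ratios of 0.11 and 0.73. Centred on the WT4 median of all tested genes, the WT4 ratio was below 0. Over both pairs it averaged 0.42 ± 0.44 (SD, n = 2 pairs) and did not pass the test (edgeR, adjusted p = 1.0).

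The enzymes of the last acylation, Dgat1 and Dgat2, had log2 ratios of -0.05 and -0.16 in the first pair, while their WT4 ratios were 0.83 and 0.64. Dgat1 (chromosome 15, 76502015 to 76511953, minus strand) had 170.0 scaled CPM in IP and 176 in IgG, then 224 in IP and 125.0 in IgG. Dgat2, the unrelated enzyme with the same reaction (chromosome 7, 99153658 to 99182719, minus strand), had 611 in IP and 682 in IgG, then 281 in IP and 179.9 in IgG. The ratios were 0.97-fold (0.89 to 1.05) and 1.79-fold (1.33 to 2.46) for Dgat1, on 50 fragments in the WT4 IgG library. For Dgat2 they were 0.90-fold (0.86 to 0.94) and 1.56-fold (1.21 to 2.03), on 72. Against the WT4 median of all tested genes both were lower. Centred on the WT4 median of genes of at least 100 scaled CPM, Dgat1 was at 0.38 and Dgat2 at 0.18 (log2). Of the 9 tested members, Dgat1 alone had a higher share of fragments in the WT4 IP library (0.0203%) than in the first IP library (0.0169%).

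Mogat1, which belongs to the Dgat2 family (chromosome 1, 78510991 to 78538173, plus strand), had 0 fragments in both libraries of the first pair. It had 4 in the WT4 IP library and 0 in the WT4 IgG library. A count of 0 allows a level of up to 0.455 scaled CPM in the first IP library, 0.534 in the first IgG library and 7.50 in WT4 IgG. With 4 IP fragments set over a floor of 3 in IgG, the WT4 fold was at least 0.36, which bounds no increase. Mogat1 stood below the filter, at a mean of 0.674 scaled CPM, and was not tested. BC035947, which shares its locus on the opposite strand, had 58 fragments in IP and 4 in IgG of the first pair, and 16 in IP and 5 in IgG of the WT4 pair. In scaled CPM that was 8.79 in IP and 0.712 in IgG, then 10.8 and 12.5, which is lower in WT4 IP.

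The deposited FPKM gave the same direction as scaled CPM for 8 of the 9 members in the first pair, all but Gpd1, and for all 9 tested members in the WT4 pair. In the first pair the difference between the measures was largest for Aqp7, at -0.90 in FPKM and -0.73 in scaled CPM (log2 ratios). For the WT4 pair Dgat1 had 0.38 in FPKM and 0.83 in scaled CPM, Gpd2 1.08 and 1.46, and Pck1 0.26 and 0.50. Gpd1 had 0.74 in FPKM and 0.36 in scaled CPM there. Gpam, Lpin1 and Dgat2 lay within 0.04 of equal on both measures in both pairs.

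**Figure D4:**
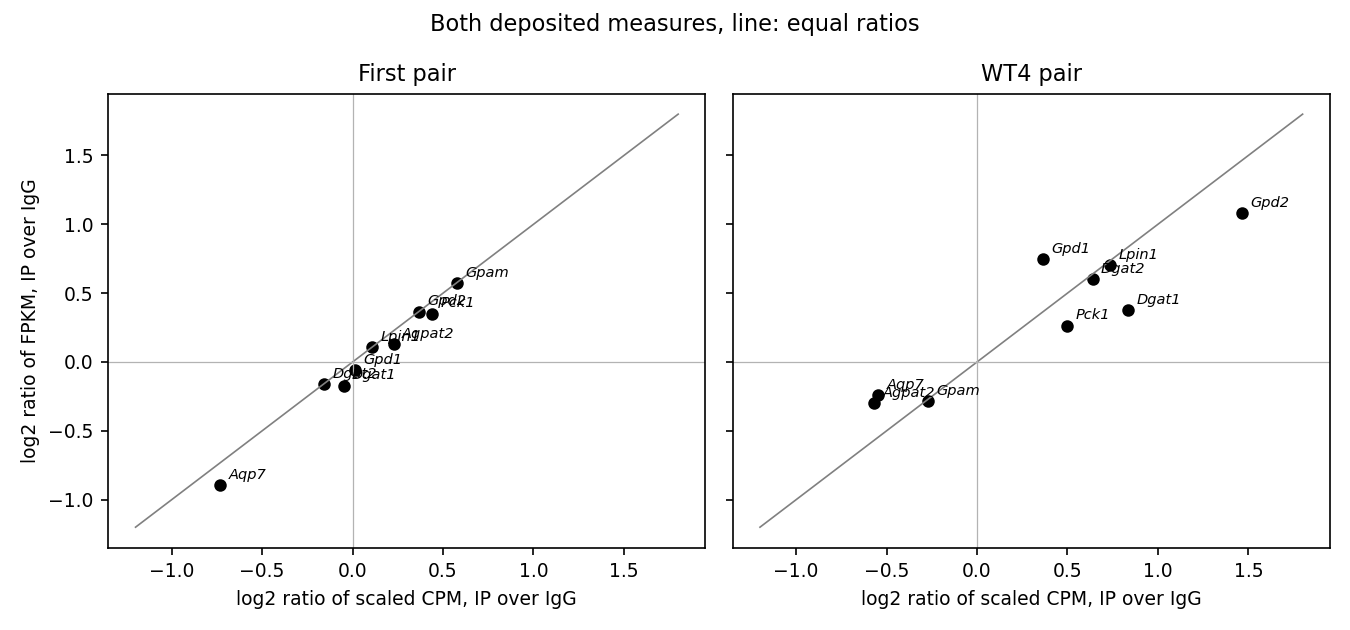
Log2 ratio of FPKM against log2 ratio of scaled CPM (IP over IgG, 1 added to each value) for the 9 tested members in the first pair (left) and the WT4 pair (right), with a line for equal ratios. Points follow the line closely in the first pair, while in the WT4 pair Gpd1, Aqp7 and Agpat2 lie above it and Dgat1, Gpd2 and Pck1 below.

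As a share of a library's own fragments 6 of the 9 (Gpd1, Gpd2, Agpat2, Lpin1, Dgat2 and Pck1) were higher in both libraries of the first pair than in both WT4 libraries, against 16% of all tested genes and 37.2% of those of at least 100 scaled CPM. Gpd1 took 1.16% of fragments in both first-pair libraries, and 0.409% in IP and 0.388% in IgG in the WT4 pair. Pck1 took 0.264% in IP and 0.196% in IgG in the first pair, then 0.157% and 0.136%. For Agpat2 the shares were 0.140% in IP and 0.120% in IgG, then 0.0341% and 0.0619%. Dgat2 had 0.0608% in IP and 0.0686% in IgG, then 0.0256% and 0.0200%. With 1 library of each kind per pair, and a cold protocol given for 1 pair alone, this difference has no test, and pair and protocol cannot be told apart. The authors' factor per library cancels in such shares.

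The 28 other genes of glycerolipid synthesis and its phospholipid branch were all listed and tested, and none was called (edgeR, smallest adjusted p = 1.0). In the first pair 3 passed the 2-fold line upward and 4 downward, shares below the 13.3% and 26.9% of all tested genes. With WT4 libraries 17 passed the line upward and 2 downward, against 51.6% and 19.3%, and 7 of the 28 had 0 fragments in WT4 IgG. With these 7 set at their bounds against a floor of 3 fragments, 13 of the 28 passed it upward, against 26.5% of all tested genes treated alike. The medians of the 28 were -0.17 in the first pair, then 1.47 in the WT4 pair, or 0.81 with the 7 at their bounds, where that of all tested genes was 0.01. In both pairs 1 gene was 2-fold higher and 1 lower, against 7.19% and 5.25% of all tested genes. The higher one was Ppap2c, a plasma membrane lipid phosphate phosphatase, with 118 fragments in IP and 40 in IgG, then 17 in IP and 0 in IgG, which is at least 1.53-fold over the floor. The lower one was Aqp9, a glycerol channel known best from liver, with 0 IP and 8 IgG fragments, then 19 and 16. Its first-pair log2 ratio of -1.28 was -0.36 after adding 5 in place of 1 and -0.50 in FPKM, which ends the call, and that of Ppap2c was 0.92 after adding 5. In the other groups the most abundant genes were Agpat6 of the endoplasmic reticulum (also called Gpat4), at log2 ratios of 0.29 and 0.27, Fitm2, which acts in droplet formation, at 0.11 and 1.05, and Chpt1 of phosphatidylcholine synthesis, at 0.39 and 3.43. The WT4 ratio of Agpat6, which catalyses the same step as Gpam, was -0.01 by total fragments, -0.18 centred on genes of at least 100 scaled CPM and -0.90 centred on all tested genes.

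Chosen after their values were seen, Gyk and Chpt1 were the 2 of these 28 with an unadjusted p under 0.05 (edgeR quasi-likelihood, 0.0243 and 0.00488, both with an adjusted p = 1.0), both higher in IP, against 0.857% of all tested genes and 3.99% of those of at least 100 scaled CPM. Gyk, the glycerol kinase that returns glycerol to the backbone pool in brown fat, had 451 scaled CPM in IP and 580.1 in IgG in the first pair. It had 399 in IP and 27.5 in IgG in the WT4 pair. The WT4 IgG library, with 11 fragments, was the 1 library that stood apart, and the first-pair ratio was the other way. Chpt1 had 602 in IP and 459 in IgG, then 415 in IP and 37.7 in IgG, and its locus is listed with 14 genes in all. The tables annotate 53 genes to glycerolipid metabolism, 6 of them members, and the list overlaps the 28. Of 43 tested, 3 were 2-fold higher and 7 lower in the first pair, against 13.3% and 26.9% of all tested genes, then 22 higher and 5 lower in the WT4 pair, against 51.6% and 19.3%.

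**Figure D5:**
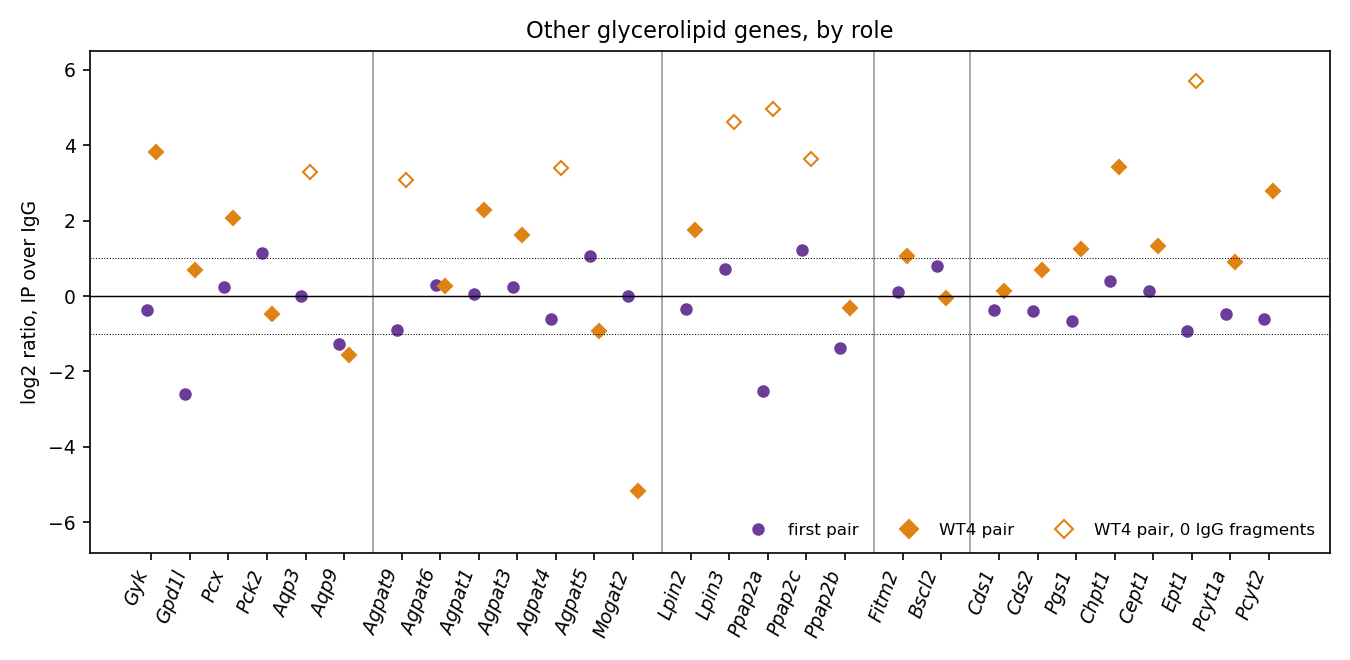
Log2 ratio of IP over IgG for the 28 other glycerolipid genes, by role from left to right (glycerol 3-phosphate supply, acyltransferases, phosphatidate phosphatases, droplet assembly, phospholipid branch), for the first pair (circles) and the WT4 pair (diamonds, open where the IgG library had 0 fragments), with dotted lines at 2-fold. Ppap2c lies above and Aqp9 below the dotted lines in both pairs, and 7 of the diamonds are open.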

How the data were processed

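The data are 2 tables, each of 1 pair. Programs named by the submitters' processing notes are HISAT2, Cuffdiff, Cufflinks and cutadapt 1.9.3, and the build is mm10. No role is stated for them, and which gene annotation was used remains not given in sources used here. The labels' protocols state depletion of ribosomal RNA and directional libraries. The authors deposited estimated counts that were rescaled by 1 factor per library, and FPKM normalized within each table. Dividing each count by its library's step gave fragments (whole to within 0.05 for 93.0% to 95.5% of the nonzero values, by library), which were rounded. Rows of 1 symbol were summed. Genes with a mean of at least 1 scaled CPM were tested with edgeR 4.0.16 (quasi-likelihood, pair as block because tables and titles pair the libraries, library sizes from the authors' scaling, 1 residual degree of freedom per gene, prior degrees of freedom infinite). Limma 3.58.1 (log2 scaled CPM + 1, trend) and DESeq2 1.42.0 were alternatives. The fits were also run on simulated data with known fold changes, and the recovery there is not given here. With 1 library per group, a pair has no test, and a 2-fold line and exact binomial counting intervals (SciPy 1.17.1) were used. The members, the lists and the line of 100 scaled CPM were chosen with earlier results of these data known. Named besides the members were, in each group of other glycerolipid genes, those 2-fold the same way in both pairs, or else the most abundant. Gene positions are 1-based, from GENCODE vM21. Replicate 1 is the first pair and replicate 2 the WT4 pair.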

Additional observations from a re-analysis of the deposited data

Results flagged for a closer look

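By the authors' scaling Gpam, Agpat2 and Dgat2 went opposite ways in the first and the WT4 pair, with counting intervals on opposite sides of equal recovery. The WT4 log2 ratio minus that of the first pair was -0.85 for Gpam, -0.80 for Agpat2 and 0.80 for Dgat2. With 1 IP and 1 IgG library per pair the difference was not tested. Agpat2 went opposite ways under all 8 settings tried. Centred on all tested genes, Dgat2 was below 0 in both pairs, at -0.13 and -0.53. With TMM factors Gpam was above 0 in both, at 0.65 and 0.0064.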

How the results depend on the processing

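The count of members called stayed at 0 under TMM factors, no filter, DESeq2, limma and with no replicate block (0 calls), and in the fits that leave out 1 library (0 in each), as did that of the other glycerolipid genes. Over all genes the count was 1, but 13 with limma, 0 with no replicate block, and from 0 to 7 when 1 library was left out (0 without either library of the first pair, 5 without WT4 IP, 7 without WT4 IgG). In the WT4 pair members 2-fold higher numbered 1 by the authors' scaling, 0 when centred on all tested genes, 3 with TMM factors and 2 without the filter, where Mogat1 counts by the added 1 alone (4 against 0 fragments, log2 ratio 0.62 after adding 5). Members 2-fold lower there numbered 0, but 3 when centred on all tested genes and 2 when centred on genes of at least 100 scaled CPM. That last centring, the count with Mogat1 and the bounds were chosen after seeing the data. The WT4 ratio of Fitm2 was -0.12 when centred on all tested genes, where that of Agpat6 was -0.90. The pair block moved no member's call. The edgeR log2 fold change of Agpat2 was 0.0045 with TMM factors and 0.018 with no replicate block, in place of -0.17. Leaving out 1 library, always without the block, gave from -0.75 to 1.21 for Gpd1, -0.30 to 2.35 for Gpd2, -0.27 to 0.57 for Gpam, -1.23 to 0.68 for Agpat2, -0.087 to 0.96 for Lpin1 and -0.62 to 1.31 for Dgat2. Dgat1, Pck1 and Aqp7 kept their direction there. Such fits set 1 library of a kind against both libraries of the other kind, so level differences between the pairs enter them. They do not measure how stable the ratio within a pair is. Within a pair no library can be left out. The WT4 IgG library, with 360369 fragments, limits every WT4 ratio. Apart from the level differences that enter the fits without 1 library, the cause of these shifts was not tested.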
